A study of Mus musculus with 6 samples.

Results

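Chemokines are small secreted proteins that steer moving cells, and they act through G protein-coupled receptors on the cell surface. CC and CXC ligands are named for the spacing of their first cysteines, and each mostly binds receptors of the matching class. Inflammatory chemokines such as Ccl2, Cxcl1 and Cxcl10 are switched on by cytokines in many cell types and draw in monocytes, neutrophils or T cells. Homeostatic chemokines are made without such a stimulus, and Cxcl12 with its receptor Cxcr4 guides blood vessels and progenitor cells in embryos, the kidney included.

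All genes named as chemokines or chemokine receptors were followed on arrays of embryonic mouse kidney, and those with the symbols Ccl, Cxcl, Ccr, Ccrl, Cxcr, Cx3c, Xcl1 and Xcr1 were taken by the name printed in the array files. This gave 71 probes of 53 genes, 35 ligands and 18 receptors, out of 41174 probes on the array. Kidney rudiments of CD1 embryos at E13.5 were cultured on filters in medium with serum and exposed for 6 h to Scriptaid or to Nullscript, each at 2.0 µg/ml, with paired rudiments receiving different drugs. Scriptaid blocks histone deacetylases (HDACs), the enzymes that take acetyl groups off histones, through its hydroxamic acid group, and Nullscript is a structural relative of it used as the inactive control. There were 3 biological replicates, and each was hybridised to 2 arrays with the dyes exchanged, so 6 arrays each carried both drugs. The series text counts 4 arrays with the dyes swapped on 2, whereas 6 arrays were analysed here, and each channel was assigned by its own dye field. No untreated kidney was analysed here. The labels do not say how many embryos a replicate holds, so the p-values measure the spread between these 3 samples. Per channel, 91.5 to 96.5% of the spots lay well above background by the scanner software's mark, and the number of arrays limits the precision.

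The values below are log2 ratios of the signal labelled Scriptaid to the signal labelled Nullscript on the same array, averaged over the 2 arrays of a replicate. A positive value therefore means more signal in the channel labelled Scriptaid. That direction opposes the study's own account and is not settled. H1f0 and Cdkn1a, which HDAC inhibitors raise in many other cells, had log2 ratios of -1.0 ± 0.15 and -0.91 ± 0.16 (SD, n = 3). Eya1 and Wt1, kidney regulators that the study is known to describe as lower after the inhibitor, had log2 ratios of 1.64 ± 0.18 and 0.97 ± 0.07. Every sign below would turn with exchanged drug names, while sizes, counts and the contrasts among chemokines would stay.

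The stretches just upstream of 4 genes on which the results turn are printed here, because they show what kind of start each gene has. Cxcl1 and Cxcl10 are inflammatory chemokines that were lower in the channel labelled Scriptaid, and Cxcl12 and Cxcr4 are the homeostatic pair that was higher. Each sequence holds the 250 bases before the start of transcription in RefSeq (GRCm38.p6), 5′ to 3′ on the gene's strand. Capitals mark matches to the motifs named after them.
Cxcl12, chr6:117168285-117168534, + strand: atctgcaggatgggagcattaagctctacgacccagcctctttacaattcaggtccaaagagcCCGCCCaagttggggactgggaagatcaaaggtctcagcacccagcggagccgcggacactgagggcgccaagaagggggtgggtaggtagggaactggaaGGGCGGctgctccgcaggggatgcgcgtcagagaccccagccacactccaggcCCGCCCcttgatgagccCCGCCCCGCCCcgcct
Cxcr4, chr1:128592300-128592549, - strand: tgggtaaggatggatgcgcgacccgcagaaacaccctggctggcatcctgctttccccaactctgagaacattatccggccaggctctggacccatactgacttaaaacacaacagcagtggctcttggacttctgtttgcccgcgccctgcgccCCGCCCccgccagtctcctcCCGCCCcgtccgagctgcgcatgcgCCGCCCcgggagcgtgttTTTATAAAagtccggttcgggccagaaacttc
Cxcl1, chr5:90890995-90891244, + strand: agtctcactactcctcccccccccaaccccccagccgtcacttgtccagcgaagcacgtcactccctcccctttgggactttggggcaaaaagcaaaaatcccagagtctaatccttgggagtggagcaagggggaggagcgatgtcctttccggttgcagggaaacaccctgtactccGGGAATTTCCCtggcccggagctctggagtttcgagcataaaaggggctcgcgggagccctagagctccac
Cxcl10, chr5:92348890-92349139, - strand: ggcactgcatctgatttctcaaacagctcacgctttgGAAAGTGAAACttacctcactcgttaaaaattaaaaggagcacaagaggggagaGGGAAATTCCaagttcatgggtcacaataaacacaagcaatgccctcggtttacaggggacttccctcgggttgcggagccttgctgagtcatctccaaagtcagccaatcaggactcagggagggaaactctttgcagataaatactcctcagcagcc
The motifs were an NF-kB-type site and an interferon-response type site, each with 2 inner bases left free, a TATA box (TATAAA) and a GC box (GGGCGG), all searched on both strands. The Cxcl12 stretch held 5 GC boxes and 14 CpG dinucleotides, and the Cxcr4 stretch 3 GC boxes, 19 CpG and a TATA box 30 bases before the start. The Cxcl1 stretch held the NF-kB-type match GGGAATTTCC 71 bases before the start, which reads as a match on the other strand too and overlaps itself by all but 1 base. It also held 10 CpG, above the median given below. The Cxcl10 stretch held GGGAAATTCC 159 bases and GAAAGTGAAAC 213 bases before the start, with 5 CpG. Among the 32851 RefSeq stretches of this length, 1.21% hold the NF-kB-type motif, 0.685% the interferon-response type, 12.4% the TATA box and 32.7% the GC box, and the median number of CpG is 6. Of the 53 member genes, 40 had a stretch in the table, and the NF-kB-type motif was found in 5 of them, Ccl1, Ccr3, Cxcl1, Cxcl10 and Cxcl2. Ccl1 had a log2 ratio of -0.02, Ccr3 -0.01 and -0.06 in its probes and Cxcl2 -0.07, and none passed the threshold given below. This motif was thus not confined to the lower pair. The GC box was found in 7 of the 40 and the TATA box in 13. Cx3cl1 and Ccl27, both lower in the channel labelled Scriptaid, also held a GC box, so GC boxes were not confined to the higher pair. The table holds none for Ccl2, Ccl11 and Cxcl5. A match describes letters and does not show binding.

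Over the whole family, about as many chemokine probes lay on one side as on the other. Of the 66 member probes that passed the background filter, covering 49 genes, 15 passed a limma adjusted p of 0.05 with more signal for Scriptaid and 14 with more for Nullscript, and 37 did not pass. These shares, 22.7 and 21.2%, lay near the background, since 23.5% of all 39405 probes tested passed with a higher signal for Scriptaid and 21.8% for Nullscript. The median log2 ratio was 0.00 for the member probes and 0.00 for all probes, and the median absolute log2 ratio was 0.11 for both. With an absolute log2 ratio of at least 0.5 as well, 5 member probes (7.58%) were higher for Scriptaid and 6 (9.09%) for Nullscript, against 8.11 and 5.44% of all probes. Cxcl5 is counted among those 6 and among the 14. It entered the test through the Nullscript channel alone, so its call is no support. Counted as genes by the brightest probe, 10 of 49 were higher for Scriptaid and 12 for Nullscript (20.4 and 24.5%), against 22.5 and 23.7% of all 26500 genes. Without replicate 3, 9 and 7 of the 66 probes passed. Calls over all probes fell as well, from 9243 to 6337 for Scriptaid and from 8577 to 5331 for Nullscript. Ligands made up 23 of the 29 calls. Of 41 ligand probes, 12 were higher for Scriptaid and 11 for Nullscript, and of 25 receptor probes, 3 and 3; the difference between ligands and receptors was not tested.

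**Figure D1:**
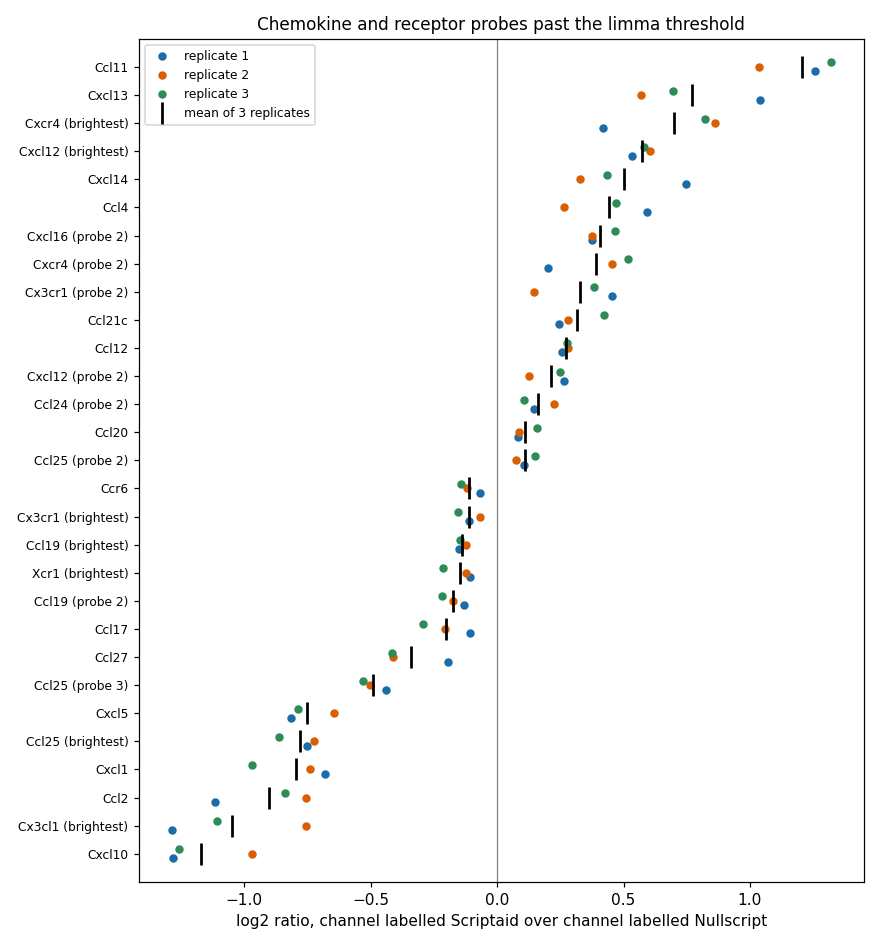
The 29 chemokine and receptor probes past the limma threshold, each with its 3 replicate log2 ratios (dots) and their mean (black tick), labelled Scriptaid over labelled Nullscript on the horizontal axis. Where a gene has several probes they are numbered from the brightest, and the means run from -1.17 for Cxcl10 to 1.20 for Ccl11.

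Cxcl12, the ligand made by embryonic stroma that holds and guides cells bearing Cxcr4, was the brightest of the ligands described in full and was higher in the channel labelled Scriptaid. In its brighter probe (A_51_P172502) the log2 levels of replicates 1, 2 and 3 were 13.61, 13.45 and 13.62 for Scriptaid and 13.08, 12.85 and 13.04 for Nullscript. The groups did not overlap. The log2 ratio was 0.57 ± 0.04 (SD, n = 3), a 1.49-fold difference (limma adjusted p = 0.000313). The other Cxcl12 probe (A_52_P685021) gave log2 levels of 11.33, 11.09 and 11.13 for Scriptaid and 11.07, 10.96 and 10.88 for Nullscript. Its groups did not overlap either, and its log2 ratio was smaller, at 0.21 ± 0.07, a 1.16-fold difference (limma adjusted p = 0.0103). This second value did not pass with the Cy5 orientation alone (log2 ratio 0.07, limma adjusted p = 0.360) or without replicate 3 (0.20, limma adjusted p = 0.0817).

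Cxcr4, the receptor of Cxcl12, was higher on the same side as its ligand. Its brighter probe (A_52_P585124) had log2 levels of 10.74, 10.88 and 10.74 for Scriptaid and 10.32, 10.01 and 9.92 for Nullscript. No Nullscript sample reached the lowest Scriptaid sample, and replicate 1 had the smallest gap. The replicate log2 ratios were 0.42, 0.86 and 0.82, with a mean of 0.70 ± 0.25, a 1.63-fold difference (limma adjusted p = 0.00382). The dimmer Cxcr4 probe (A_52_P565353) had log2 ratios of 0.20, 0.46 and 0.52, with a mean of 0.39 ± 0.17 (limma adjusted p = 0.00845). In both Cxcr4 probes replicate 1 was the lowest. Without replicate 3 the dimmer probe missed the threshold narrowly (log2 ratio 0.33, limma adjusted p = 0.0541).

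The RNA came from whole rudiments, so fewer cells of a type and less RNA per cell cannot be told apart. Endothelial cells and nephron progenitors are cells known to carry Cxcr4, and stroma is a known source of Cxcl12. Of 14 endothelial markers, 12 were higher for Scriptaid and 1 for Nullscript, with a median log2 ratio of 0.67, and their summed log2 level was 15.42 to 15.46 for Scriptaid and 14.58 to 14.89 for Nullscript. Of 11 nephron progenitor markers, 10 were higher for Scriptaid and 0 for Nullscript (median log2 ratio 0.71), with summed log2 levels of 15.76 to 15.88 and 14.71 to 14.84. Of 12 stromal markers, 8 were higher for Scriptaid and 2 for Nullscript (median 0.48), with summed log2 levels of 17.34 to 17.42 and 17.13 to 17.29. The brightest of them, Col1a1, is 1 of those 2 and was saturated on 5 arrays; without it the summed log2 levels were 16.90 to 16.99 and 16.45 to 16.66. All markers of these 3 lists passed the background filter. Cxcl12 and Cxcr4 lay on the same side as these lists, and the part of cell composition in their difference was not tested. The medians stand against -0.01 over all genes, and the counts against 22.5 and 23.7% of all genes higher for Scriptaid and for Nullscript.

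**Figure D2:**
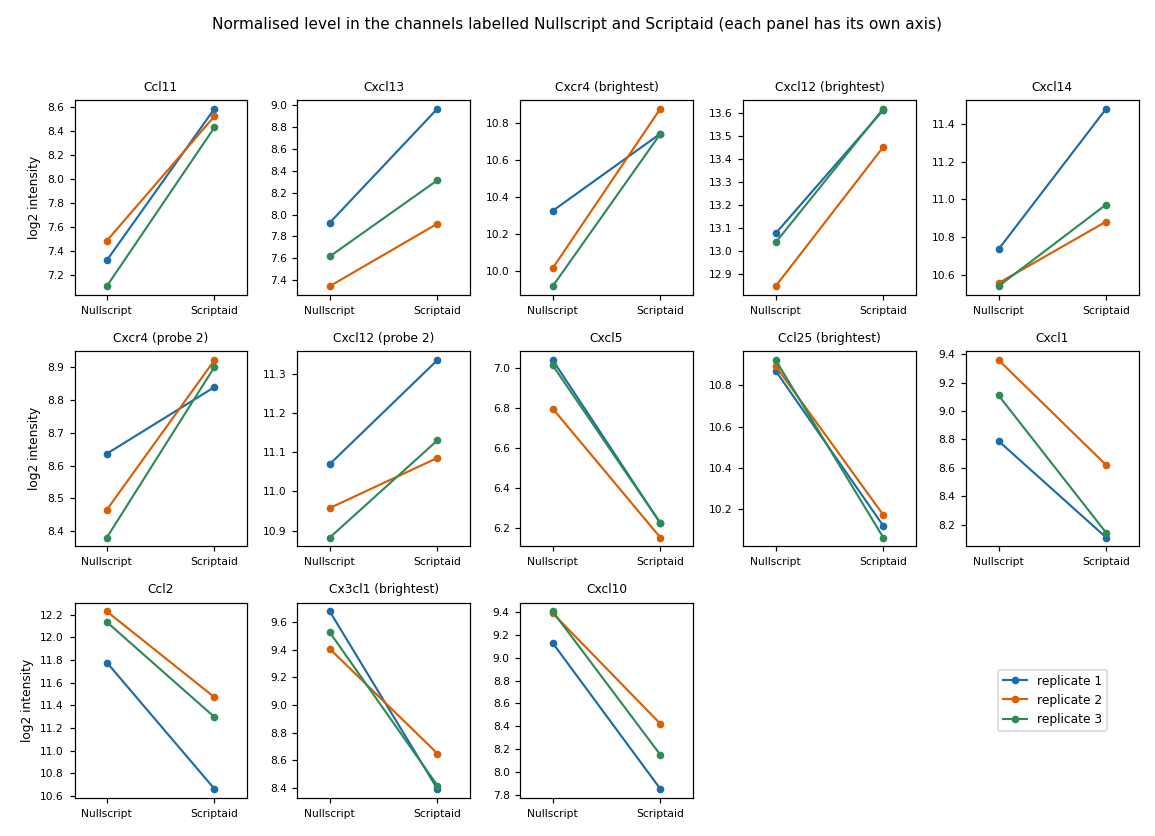
Normalised log2 intensity in the channels labelled Nullscript and Scriptaid for 13 probes, the 11 described in full and the second probes of Cxcl12 and Cxcr4, with a line for each of the 3 replicates. Every panel has its own vertical axis. All lines within a panel run the same way, which was a condition of selection for the 11 probes described in full.

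Among the other ligands higher in the channel labelled Scriptaid, Ccl11 had the largest difference. Ccl11 is eotaxin, which attracts eosinophils through Ccr3. Its log2 levels were 8.58, 8.52 and 8.43 for Scriptaid and 7.32, 7.49 and 7.11 for Nullscript, with no overlap. The log2 ratio was 1.20 ± 0.15 (SD, n = 3), a 2.30-fold difference (limma adjusted p = 0.000293). Both probes of its receptor Ccr3 lay near 0, at log2 ratios of -0.01 and -0.06, and neither passed.

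Cxcl13, which draws B cells into follicles through the receptor Cxcr5, had replicate log2 ratios of 1.04, 0.57 and 0.70. Its log2 levels were 8.97, 7.92 and 8.31 for Scriptaid and 7.93, 7.35 and 7.62 for Nullscript. Replicate 1 was the brightest in both channels, and its Nullscript level lay just above the Scriptaid level of replicate 2, so the groups overlapped although each replicate had the same direction. The mean log2 ratio was 0.77 ± 0.24, 1.70-fold (limma adjusted p = 0.00273). Cxcl14, an ancient chemokine made by epithelia and stroma, had log2 levels of 11.48, 10.88 and 10.97 for Scriptaid and 10.74, 10.56 and 10.54 for Nullscript. Replicate 1 again stood highest for Scriptaid, and the groups did not overlap. The log2 ratio was 0.50 ± 0.22, 1.42-fold (limma adjusted p = 0.00797).

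The 6 genes described in full with more signal for Nullscript were all ligands, and 4 of them, Cxcl10, Ccl2, Cxcl1 and Cxcl5, are classical inflammatory chemokines. Cxcl5 entered the test through the Nullscript channel alone, as given below, so its place in this group is no support. Cxcl10, the interferon-induced ligand of Cxcr3 whose upstream stretch is printed above, had log2 levels of 7.85, 8.42 and 8.15 for Scriptaid and 9.13, 9.39 and 9.41 for Nullscript. The groups did not overlap. The log2 ratio was -1.17 ± 0.17 (SD, n = 3), so Nullscript was 2.25-fold higher (limma adjusted p = 0.000385). Cxcl9, which shares the receptor Cxcr3 and is also known as interferon-induced, had a log2 ratio of 0.00 (95% confidence interval -0.07 to 0.08). The Cxcl9 probe was dimmer, with a mean log2 level of 7.41 against 8.72 for Cxcl10. Cxcr3 itself had 0.05 (-0.03 to 0.13). The signs of Cxcl9 and Cxcr3 differed between the dye orientations.

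Ccl2, the main attractant of monocytes through Ccr2, had log2 levels of 10.66, 11.47 and 11.30 for Scriptaid and 11.78, 12.23 and 12.13 for Nullscript. Replicate 1 was the dimmest in both channels and had the widest gap. The log2 ratio was -0.90 ± 0.19, with Nullscript 1.87-fold higher (limma adjusted p = 0.000843). This probe was printed in 10 spots on each array. The log2 ratios of those spots had an SD of 0.02 to 0.04 within an array, below the spread between replicates. Of other attractants of monocytes near it on chromosome 11, Ccl7 had log2 ratios of -0.09 and -0.03 in its probes and Ccl8 0.02, none of which passed. Ccl12, also near it, passed on the other side, at 0.27 (limma adjusted p = 0.00159). The brighter Ccr2 probe had a log2 ratio of 0.14 and missed the threshold (95% confidence interval 0.03 to 0.26, limma adjusted p = 0.0554).

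Cxcl1 and Cxcl5 attract neutrophils through Cxcr2, a receptor with no probe under that name among the members. Cxcl1 had log2 levels of 8.11, 8.62 and 8.14 for Scriptaid and 8.79, 9.36 and 9.11 for Nullscript. Its groups did not overlap, and its log2 ratio was -0.80 ± 0.15, with Nullscript 1.74-fold higher (limma adjusted p = 0.000743). Cxcl2, a close relative that acts on the same receptor and also holds the NF-kB-type motif, had a log2 ratio of -0.07 and did not pass (95% confidence interval -0.15 to 0.02). Cxcl5 was the dimmest ligand described in full, with log2 levels of 6.22, 6.15 and 6.22 for Scriptaid and 7.04, 6.80 and 7.01 for Nullscript. It was well above background on 6 of 6 arrays for Nullscript and on 1 of 6 for Scriptaid. Cxcl5 thus entered the test through the Nullscript channel alone, so it had to differ, its p-value (limma adjusted p = 0.000371) is no support, and no exact fold is given. Its fitted log2 ratio was -0.75 ± 0.09. With the software's processed signals in place of normexp with an offset, which pulls dim ratios towards 0, the Cxcl5 log2 ratio was -2.75.

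Cx3cl1, also called fractalkine, is a membrane-bound ligand of endothelium and epithelium that holds cells bearing Cx3cr1. Its brighter probe had log2 levels of 8.39, 8.65 and 8.42 for Scriptaid and 9.68, 9.41 and 9.53 for Nullscript. The groups did not overlap, and replicate 2 had the smallest gap. The log2 ratio was -1.05 ± 0.27, with Nullscript 2.07-fold higher (limma adjusted p = 0.00136). The second Cx3cl1 probe was above background on 2 of 6 arrays for Scriptaid and 1 of 6 for Nullscript and was not tested. The probes of the receptor Cx3cr1 disagreed. The brighter had a log2 ratio of -0.11 ± 0.04 (limma adjusted p = 0.0455) and the other 0.33 ± 0.16 (limma adjusted p = 0.0141). The first lost its call in 9 alternatives and the second in 1, so no direction is given for Cx3cr1.

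Ccl25, which draws developing T cells to thymus and gut through Ccr9, had 3 probes that did not agree. The brightest had log2 levels of 10.12, 10.17 and 10.06 for Scriptaid and 10.87, 10.89 and 10.92 for Nullscript, the tightest replicates of the 6 ligands described in full on this side. Its log2 ratio was -0.78 ± 0.07, with Nullscript 1.72-fold higher (limma adjusted p = 0.000278). A second (A_52_P326713) had a log2 ratio of -0.49 ± 0.05 (limma adjusted p = 0.000494). The remaining one (A_52_P730698) had a log2 ratio of 0.11 ± 0.04 (limma adjusted p = 0.0429), on the other side, with -0.03 in the Cy3 orientation and 0.25 in the Cy5 orientation. Its receptor Ccr9 had a log2 ratio of -0.09 (95% confidence interval -0.16 to -0.01) and did not pass (limma adjusted p = 0.0675).

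**Figure D3:**
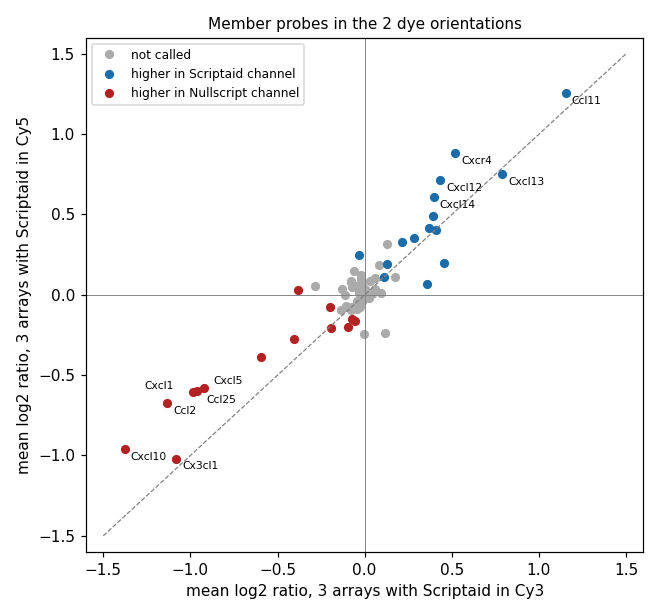
Mean log2 ratio of each of the 66 tested member probes on the 3 arrays with Scriptaid in Cy3 (horizontal) and on the 3 arrays with Scriptaid in Cy5 (vertical), coloured by the limma call, with the dashed line where both are equal. All 11 probes described in full have the same sign in both orientations, from Cxcl10 at -1.38 and -0.96 to Ccl11 at 1.15 and 1.25. They include Cxcl5, which entered the test through the Nullscript channel alone.

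A further 18 probes passed the threshold with log2 ratios between -0.49 and 0.44. Ccl4, an inflammatory ligand made by macrophages, had log2 ratios of 0.59, 0.27 and 0.47, with a mean of 0.44 ± 0.17 (limma adjusted p = 0.00546). Cxcl16, a membrane-bound ligand of Cxcr6, had a log2 ratio of 0.41 ± 0.05 in one probe (limma adjusted p = 0.000854), and its brighter probe had 0.08 and did not pass. Ccl12, a monocyte attractant close to Ccl2 in sequence, had 0.26, 0.28 and 0.28 in the replicates, a mean of 0.27 ± 0.01 (limma adjusted p = 0.00159). All 3 replicates of each of these probes had the same sign.

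Ligands of lymphoid tissue are also among these probes. Ccl21c, a ligand of Ccr7, had a log2 ratio of 0.32 ± 0.09 (limma adjusted p = 0.00415), and Ccl19, which binds the same receptor, had -0.14 and -0.18 in its probes (limma adjusted p = 0.0143 and 0.0103). Both Ccl19 calls were lost under median centring (limma adjusted p = 0.230 and 0.0930) and without replicate 3 (0.106 and 0.0862), and the second probe had 0.030 in the Cy5 orientation alone, so no direction is given for Ccl19. Ccl21c belongs to near-identical gene copies that a probe may not tell apart. Ccl27, named Ccl27a in the current table and also with near-identical copies, had -0.34 ± 0.13 (limma adjusted p = 0.00668). Ccr7, their receptor in the case of Ccl19 and Ccl21c, had a log2 ratio of -0.11 (95% confidence interval -0.26 to 0.03) and did not pass. Small ratios with a call were those of Ccl24 at 0.16 in one probe, Ccl20 at 0.11, Ccl17 at -0.20, Xcr1 at -0.15 in one probe and Ccr6 at -0.11. Of the 18 smaller calls, 13 were lost in at least 1 alternative of the processing.

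The 37 probes that did not pass covered 29 genes and had log2 ratios between -0.12 and 0.22, with a median absolute value of 0.04. Across all of them the 95% confidence intervals stayed between -0.28 and 0.55. The widest was that of Ccl3, a close relative of Ccl4 in sequence, whose replicates were 0.60, -0.01 and 0.08 (mean 0.22 ± 0.33, limma adjusted p = 0.231). Only replicate 1 was high for Ccl3. Among the uncalled receptors, the log2 ratio was 0.14 and 0.01 for the Ccr2 probes, and Cxcr6 had 0.02 (-0.05 to 0.09), Ccr4 0.00 and -0.05 and Ccr8 -0.12 (-0.28 to 0.04). The scavenger Ccrl1, now called Ackr4, had 0.06 and -0.03, and Ccrl2 -0.08 and 0.04. Ccl5 had 0.05 and -0.04, Ccl6 0.00, Ccl9 -0.06, Ccl28 -0.01, Ccr10 0.02, Ccr1l1 -0.01 and Cxcl15 0.01 and -0.04. The platelet chemokines Cxcl4 (Pf4) and Cxcl7 (Ppbp) had -0.11 and 0.05.

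Ccl22, Ccr1, Cxcl11 and Xcl1 were well above background on 0 of 6 arrays for either drug and were not tested. The mark for being above background is permissive on these arrays, and passing it does not show that a transcript is present. A ratio near 0 in a dim probe can therefore come with no measurable transcript in either channel.

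Several chemokine genes lie next to each other with no other protein-coding gene between them, and their ratios differed within such runs. On chromosome 11 the order Ccl2, Ccl7, Ccl11, Ccl12, Ccl8, Ccl1 gave log2 ratios of -0.90, -0.09, 1.20, 0.27, 0.02 and -0.02 in the brightest probes. Ccl2 and Ccl11 in that run passed in opposite directions, while Ccl7 between them did not pass. On chromosome 5 Cxcl1 at -0.80 lay between Cxcl15 at -0.04 and Cxcl2 at -0.07. Cxcl5 lay beside Cxcl7 at 0.05, but it entered the test through the Nullscript channel alone, so its difference is no support here. The run Ccl5, Ccl9, Ccl6, Ccl3, Ccl4 on chromosome 11 held 1 called gene, Ccl4. On chromosome 8, Cx3cl1 at -1.05 lies between Ccl22 and Ccl17, and Ccl17 had -0.20 on the same side.

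**Figure D4:**
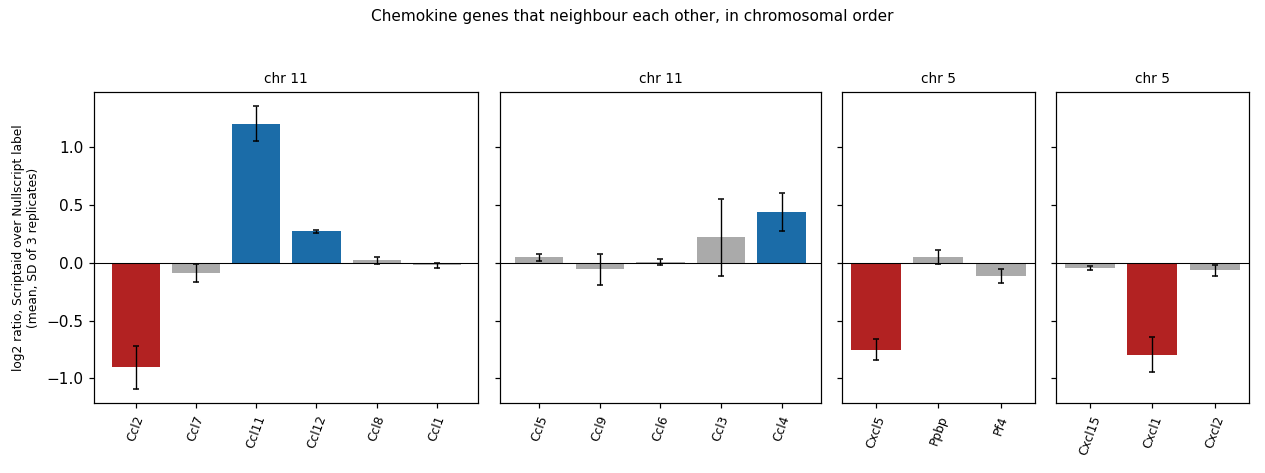
Mean log2 ratio (bar) and SD of 3 replicates (error bar) of the brightest probe of neighbouring chemokine genes, 1 panel for each of 4 runs of ligands, in chromosomal order. Blue bars were higher for Scriptaid, red bars for Nullscript, and grey bars did not pass. Ccl2 and Ccl11 stand out on opposite sides in the first panel. Cxcl5 entered the test through the Nullscript channel alone, so its bar is no support.

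Chemokine receptors signal through inhibitory G proteins, PI3-kinases, arrestins and small GTPases, and this set was split between both sides. Of 37 signalling partners tested, 13 were higher for Scriptaid and 14 for Nullscript, with a median log2 ratio of 0.02, against 22.5 and 23.7% of all genes and a median of -0.01. Pik3cd, a PI3-kinase catalytic subunit of blood cells, had the largest log2 ratio in its brightest probe, at -1.17 ± 0.16 (limma adjusted p = 0.000249), with -0.07 in its other probe. The adhesion adaptor Pxn had -0.94 ± 0.17 (-0.19 to -0.02 in its other probes), Pik3r5 -0.90 ± 0.07 (-0.04 in its other probe) and Stat3 -0.86 ± 0.18 (-0.08 in its other probe). Of the chemokine-like and scavenger genes under other names, 2 of 5 were higher for Scriptaid and 0 for Nullscript. Dpp4, a peptidase that trims Cxcl12 and other chemokines, had a log2 ratio of 0.70 ± 0.24 (limma adjusted p = 0.00322) and 0.21 to 0.70 in its other probes. Mif, a cytokine that also binds Cxcr4, had 0.32 ± 0.04 (limma adjusted p = 0.00108) in a probe that was saturated on 1 array.

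NF-kB is the transcription factor family that drives many inflammatory chemokines, with inhibitors that hold it in the cytoplasm. Of 14 factors and inhibitors, 4 were higher for Scriptaid and 7 for Nullscript, with a median log2 ratio of -0.17, against 22.5 and 23.7% of all genes. The subunit Nfkb1 had 1.21 ± 0.20 in its brightest probe and 0.33 to 0.50 in the others, and the inhibitor Nfkbia had 0.67 ± 0.16. The inhibitor Nfkbie and the cofactor Nfkbiz had -1.05 ± 0.04 and -0.68 ± 0.05. All 4 of these genes passed the limma threshold. Of 6 cytokines known to induce chemokines, Il1b was higher for Scriptaid at 0.26 ± 0.07 (limma adjusted p = 0.00411), in a dim probe with a mean log2 level of 6.90. Ifng was higher for Nullscript at -0.15 ± 0.03 (limma adjusted p = 0.0116), with -0.03 in its other probe. Tnf at 0.01 and Il6 at 0.02 did not pass.

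Blood cells are both sources and targets of chemokines. Of 17 macrophage markers tested, 12 were higher for Scriptaid and 1 for Nullscript, with a median log2 ratio of 0.27, against 22.5 and 23.7% of all genes, the shares that stand for every list here. The marker higher for Nullscript was Csf1r, at -0.14 ± 0.06 (limma adjusted p = 0.0268) in its brightest probe and -0.05 to 0.12 in the others. Ptprc, the CD45 antigen of white blood cells, had 1.07 ± 0.12 in its brightest probe and -0.11 to 0.15 in the others, so its probes disagreed. The lysozyme Lyz2 had 0.89 ± 0.07 and 0.18 in its other probe, and the endotoxin co-receptor Cd14 had 0.59 ± 0.12. Cd68 at 0.03 and Adgre1 at 0.06 did not pass. The summed log2 level of the macrophage list was 13.38 to 13.52 for Scriptaid and 13.07 to 13.28 for Nullscript, with 0 of its markers below background throughout. Ccl4 and Ccl12, ligands made by macrophages, lay on the side of most of these markers, and Ccl2, Cxcl1 and Cxcl10 on the other side, and the part of macrophages in either was not tested. Of 11 lymphocyte and granulocyte markers tested, 2 passed in each direction (median log2 ratio -0.01), and their summed log2 levels, 12.87 to 13.04 for Scriptaid and 12.91 to 13.15 for Nullscript, overlapped. The ureteric bud list, with 5 of 11 markers higher for Scriptaid and 2 for Nullscript (median 0.11), had summed log2 levels of 16.06 to 16.32 and 16.02 to 16.25. The markers of bud and progenitors that define the embryonic kidney were thus measured in both channels.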

How the data were processed

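Chemokine and receptor genes were taken by name from 6 2-colour arrays; members and gene lists were chosen with earlier results of these data known. The deposited scanner files were written by Agilent Feature Extraction (version 9.1.3.1, per the file headers) and hold each spot's intensity and local background, quality marks, and the log10 ratio of red to green. The authors' deposited value table of log10 ratios equals these ratios, turned to Scriptaid over Nullscript, within 4.82e-06, with array medians of -0.0112 to -0.00298; it was not used for tests. Intensities were corrected with normexp (offset 50) and loess in limma (version 3.58.1, under R 4.3.3); controls had weight 0, outlier spots were left out and saturated spots were kept. Spots of a probe were averaged, then the 2 arrays of a replicate. A probe entered if its signal for either drug was well above background on 3 or more of 6 arrays, and its replicate mean was tested against 0 with lmFit and eBayes, with Benjamini-Hochberg adjustment over all 39405 probes; lists use the brightest probe of each gene, adjusted over 26500 genes. The procedure was tested on simulated data. Probes described in full passed with the same sign in 3 replicates and an absolute log2 ratio of at least 0.5; the other members are given by value or range, and of each list up to 4 called genes with the largest ratios. Il6, Tnf, Cd68, Adgre1, Csf1r, H1f0, Cdkn1a, Eya1 and Wt1 were named after their values were seen. The 2 arrays of a replicate are 1 biological replicate per the labels, and their deviations correlated at 0.61, 0.13 and 0.01. Between arrays of different replicates and dye orientations these correlations were -0.42 to 0.26, a range that holds the values of replicates 2 and 3. The pairing of those replicates therefore rests on the labels. A member that is counted in the totals is not reported here. Names came from RefSeq tables (63 member probes by accession). Alternatives were the replicate block with a dye term, no background correction, median centring, the software's processed signals, other background filters, saturated spots left out, each dye orientation alone, slide as a block, each replicate left out and the brightest probe of each gene.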

Additional observations from a re-analysis of the deposited data

Results flagged for a closer look

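For 6 member probes, all 3 arrays with Scriptaid in Cy5 had the opposite sign to all 3 arrays with Scriptaid in Cy3. The Cy5 minus Cy3 difference of the log2 ratio was -0.35 for a Ccr3 probe (A_52_P661044), whose dye term passed (limma adjusted p = 0.0381), with means of 0.12 in the Cy3 and -0.24 in the Cy5 orientation. It was 0.28 for the Ccl25 probe that lay opposite to the others of that gene (A_52_P730698, limma adjusted p of the dye term 0.0557). For the remaining 4 the dye term did not pass. Their differences were 0.21 for an Xcr1 probe (A_52_P490159), 0.17 for a Cxcl15 probe (A_52_P820196), 0.16 for Cxcl9 and 0.14 for Cxcr3. Of these 6 probes only the Ccl25 probe was called in the mean of both orientations. The dye term passed for 1 of 66 member probes and for 3.82% of all probes.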

How the results depend on the processing

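All 11 probes described in full kept their direction and their call in every alternative in which they were tested. For Cxcl5, which entered the test through the Nullscript channel alone, a kept call is no support. Of the 18 smaller calls, 5 kept theirs and 13 lost theirs in at least 1 alternative. Of the 37 uncalled probes, 24 stayed uncalled in every alternative and 11 gained a call in at least 1. The other 2, a Ccr2 and an Xcr1 probe, had a call with the sign turned under median centring. The count of member probes higher for Scriptaid went from 15 to between 9 and 13 when each replicate was left out, and that higher for Nullscript from 14 to between 7 and 15. Both lowest counts, 9 and 7, came without replicate 3, which was alone on its slide. The calls over all probes fell too without replicate 3, from 9243 to 6337 and from 8577 to 5331. With 6 arrays, a dye term and the replicate block the counts were 16 and 13, and no call described in full was lost. That fit uses the same pairs of arrays, so it does not test the pairing. The fits on each dye orientation alone use no pairs, and they kept these calls too. In every other alternative both counts stayed within 1.5 times, from 10 to 15 and from 11 to 15. These counts are not all out of 66 probes. The brightest probe of each gene left 49, the source of the 10, and the other background filters left 71 and 63. Of the 29 called probes, the sign turned in some alternative for 1 of the 10 smaller calls for Scriptaid and 1 of the 8 for Nullscript, and of the 37 uncalled probes, most of them near 0, for 24. The turns that involve a call were those of a Ccl19 probe (0.030, Cy5 orientation alone), a Ccl25 probe (-0.031, Cy3 orientation alone), and under median centring for a Ccr2 probe (-0.24) and an Xcr1 probe (-0.14); the cause was not tested. Member probes not above background, such as Cxcl5 for Scriptaid, have ratios that depend on how background is handled.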
